A study of Homo sapiens with 12 samples.

Results

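Messenger RNA of 2 human lung cell lines was compared while both were under SP600125, a small molecule that blocks JNK (the Jun N-terminal kinase family), to see which differences between the lines stood under the drug. The 2 libraries labelled A549 with SP600125 were set against the 2 labelled BEAS-2B with SP600125, 4 of the 12 libraries of the series, across all genes. A549 is a lung adenocarcinoma line. BEAS-2B, named B2B here, is a line of bronchial epithelial cells immortalised with a viral oncogene. Both groups (A549_SP600125 and B2B_SP600125) received 50 µM SP600125 for 72 h in serum-containing medium, dissolved in DMSO, and were harvested by trypsinization. The untreated libraries of the lines (A549_NT and B2B_NT, 2 each) served as the background. By their labels the controls had no treatment, whereas figure legends of the study name DMSO, so solvent and drug cannot be told apart if the controls had none. Each kind of cell is 1 line, so a difference between cancer and immortalised cells cannot be told apart from a difference between these lines. The sources do not say whether the libraries of a group came from separate cultures, so p-values measure the spread between libraries, which may be technical.

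JNK phosphorylates Jun, which pairs with Fos proteins to form AP-1, a transcription factor that answers growth and stress signals within minutes to hours. Cell identity rests on other layers as well. Epithelial cells hold together through E-cadherin and tight junctions under the control of factors such as ELF3 and the grainyhead and FOXA families. Mesenchymal cells instead build matrix and are governed by factors such as SNAI2, ZEB2 and TWIST1. Lines also differ by lost or mutated genes. A549 is known for a deletion of CDKN2A and a mutation of KEAP1, the protein that holds the antioxidant regulator NRF2 in check.

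Reads counted in genes ranged from 13969766 to 17459734 in the 4 SP600125 libraries and from 19868320 to 24917854 in the 4 untreated ones. The files list 26485 gene symbols, of which 16373 were tested after a filter on low counts. Levels are given in CPM, counts scaled to the size of each library with TMM factors, for replicate 1 and replicate 2 of a group. Line differences are log2(A549/B2B) ± SE from edgeR's quasi-likelihood fit of all 12 libraries, with Benjamini-Hochberg adjusted p (n = 2 per group). A gene was called higher or lower in A549 at an adjusted p under 0.05 and an absolute log2 difference of at least 0.5. The change of a line difference is its value under SP600125 minus its untreated value, tested in the same fit. Reads in no annotated gene made up 15.1 to 17.7% of tallied reads in the SP600125 libraries and 23.8 to 25.9% in the untreated ones. Across 14856 genes the GC content of a gene's transcripts correlated with the change of its line difference (Spearman correlation of -0.325, across genes), and less with the line difference under SP600125 itself (-0.093). The median GC content was 48.2% over these genes, 57.6% over the AP-1 subunits, 51.4% over the immediate early genes, 47.5% over the DNA replication genes and 45.3% over the mitosis genes described below. Genes share libraries and are not independent, and the part of base composition in the changes was not tested. In bulk RNA, fewer cells of a kind and less RNA per cell cannot be told apart.

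The labels were checked against marker genes. CDKN2A had no count in either A549_SP600125 library and 151 and 157 CPM in B2B_SP600125. In A549_NT it stood at 0 CPM in replicate 1 and 0.796 CPM (15 counts) in replicate 2. Markers of the labelled bronchial origin were mixed in B2B. The basal keratins KRT5 and KRT14 reached at most 1 count in any SP600125 library, and the basal regulator TP63 stood at 0 and 0.0609 CPM in B2B_SP600125 and 3.50 and 2.96 CPM in A549_SP600125. The basal keratin KRT17 was present in B2B_SP600125 at 38.9 and 59.2 CPM, and the basal glycoprotein PDPN at 0.884 and 1.03 CPM. The secretory marker SCGB1A1 reached at most 2 counts. In A549, often used as a model of alveolar type II cells, the surfactant gene SFTPC reached at most 3 counts and the lung lineage factor NKX2-1 stood at 0 and 0.138 CPM, below B2B with 1.82 and 1.40 CPM. Of 15 immune markers 10 were too low to test, among them PTPRC at no more than 2 counts and CD3E at 0.

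Most line differences stood. Under SP600125, 9531 of 16373 genes (58.2%) were called between the lines, 4912 higher in A549 (30.0%) and 4619 lower (28.2%). The counts of list members below are to be read beside these shares. Without treatment 9316 were called (56.9%), 4977 higher (30.4%) and 4339 lower (26.5%). The contrasts share no library. Of the 9316 untreated calls, 6759 were called in the same direction under the drug (72.6%, or 70.9% of the calls under SP600125), 2380 were not called there and 177 were called in the opposite direction (1.90%). The share that stood was near equal in both directions, 3648 of 4977 higher genes and 3111 of 4339 lower genes. It was greater for larger untreated differences, from 56.9% of 3097 genes at a log2 difference of 0.5 to 1, through 73.0% of 2692 genes at 1 to 2 and 80.7% of 1779 genes at 2 to 4, to 91.4% of 1748 genes at 4 or more. Among those 1748 genes 2 turned over. To stand, a gene had to pass the same minimum of 0.5 again. Genes just above it could fall short by a small shift, so part of this gradient is built into the rule.

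**Figure D1:**
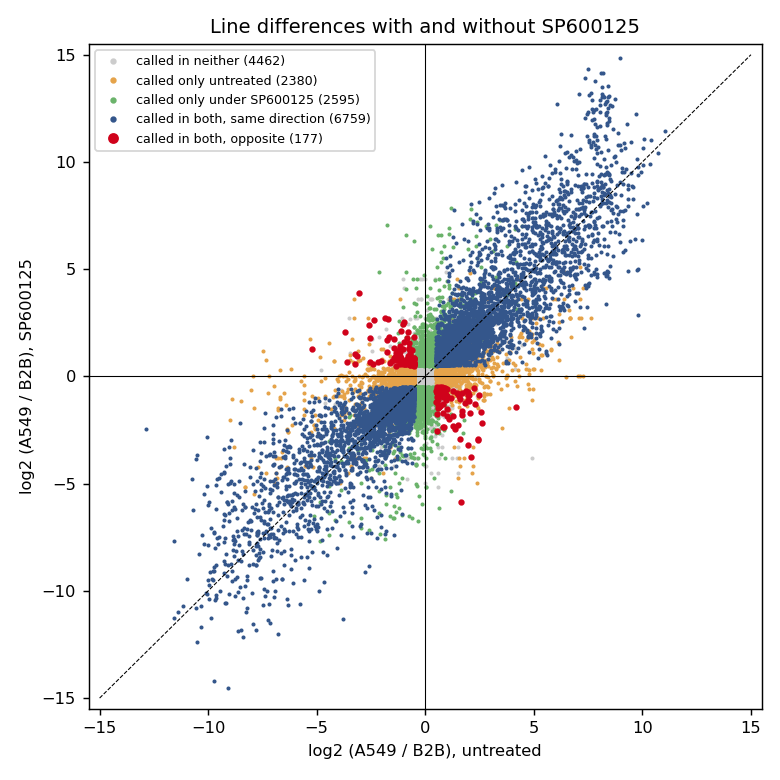
Each point is 1 of 16373 genes, with log2(A549/B2B) in untreated cells on the x axis and under SP600125 on the y axis, coloured by where it was called. The 6759 genes called in the same direction lie along the dashed line of equal differences, the 177 that turned over lie to the upper left and lower right, and a column of genes near 8 on the x axis reaches higher values on the y axis.

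Standing did not mean keeping the same size. Of the 6759 genes, 1522 had a line difference whose size changed by the test, 758 larger and 764 smaller under SP600125. For 2686 of them (39.7%) the 95% interval of the change lay within 2-fold either way, and for the others it reached past 2-fold. Over all genes 4121 changes were called (25.2%), 1984 upwards (12.1%) and 2137 downwards (13.1%). That count was 2741 without A549_SP600125 replicate 1.

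The largest differences under SP600125 were of genes with few or no counts in the other line. Of 9578 named genes with at least 10 CPM in A549_SP600125, 48 had no count in either B2B_SP600125 library. The other way round it was 24 of 9464 genes. Untreated, where libraries held more reads, it was 2 of 9564 genes of A549_NT and 8 of 9462 genes of B2B_NT. TESC, which encodes tescalcin, a calcium-binding protein, stood at 183 and 193 CPM in A549 and at 0 in both B2B libraries, at least 2235-fold higher when B2B is given 3 counts over the group. PDGFD, a platelet-derived growth factor, stood at 113 and 119 CPM against 0 (at least 1376-fold). FOXA2, a pioneer factor of the endoderm, stood at 62.7 and 59.3 CPM against 0 (at least 725-fold). RSPO3, a secreted amplifier of Wnt signals, had 407 and 398 CPM in A549 and 1 count over both B2B libraries, a ratio of 14341 with a counting interval of 2573 to 566505. NTS, the precursor of the peptide neurotensin, also had 1 count in B2B_SP600125 against 317 and 327 CPM in A549.

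On the B2B side, BEX1 stood at 123 and 122 CPM and at 0 in both A549_SP600125 libraries (at least 1141-fold lower in A549). The homeobox factors SIX2 (26.5 and 27.4 CPM) and IRX1 (25.9 and 21.97 CPM) were at 0 in A549, at least 250.3-fold and 224-fold lower. ADAMTS5, a protease of cartilage matrix, stood at 18.9 and 23.7 CPM against 0 (at least 197-fold lower). PRMT6, an arginine methyltransferase of histones that most cells express, had 21.7 and 24.5 CPM in B2B and no count in A549.

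The untreated size of these differences is less certain. The 10 largest A549 genes together had 1 count in each B2B_SP600125 library, 4 in B2B_NT replicate 1 and 216 in B2B_NT replicate 2, or 0.665% of their A549_NT level. The 10 largest B2B genes had 0 counts in both A549_SP600125 libraries, 3 in A549_NT replicate 1 and 42 in A549_NT replicate 2. These genes were picked for their difference under SP600125, so counts near 0 there were fixed by the choice. Only the untreated replicates can be set against each other. Without the 2 untreated replicate 2 libraries, 5975 of 8119 untreated calls stood (73.6%), and 2277 changes of line differences were called. Of the 4117 changes tested both ways, 2214 were called again in the same direction.

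Epithelial genes stood higher in A549 under SP600125. Of 28 junction, keratin and membrane protease genes, 25 were tested, of which 16 were higher in A549 and 4 lower (30.0% and 28.2% of all genes), against 18 and 5 untreated, and 19 were called the same way in both conditions. CDH1, the E-cadherin of adherens junctions (chr16:68737292-68835537, hg38), stood at 438 and 380.5 CPM in A549_SP600125 and 3.38 and 2.37 CPM in B2B_SP600125. The groups were far apart, at a log2 difference of 7.14 ± 0.26 (adjusted p = 3.14e-11), against 6.67 ± 0.27 untreated. The interval of the change, -0.40 to 1.33, left both a smaller and a larger difference possible. The protease inhibitor SPINT2 stood at 434 and 471 CPM against 9.04 and 8.34 CPM (5.70 ± 0.19, adjusted p = 1.38e-11), and its change of 0.31 ± 0.23 lay within 2-fold (-0.19 to 0.81). EPCAM, an adhesion molecule of simple epithelia, kept its direction and lost size. It stood at 27.9 and 27.5 CPM in A549_SP600125, after 67.6 and 63.6 CPM in A549_NT, and at 2.55 and 2.07 CPM in B2B_SP600125. The difference was 3.57 ± 0.18 under the drug and 5.10 ± 0.18 without it (change -1.53 ± 0.26, adjusted p = 0.00106).

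The 12 epithelial transcription and splicing factors split into 7 higher and 5 lower in A549, and 11 were called the same way without drug. EHF, an ETS factor of epithelia, stood at 7.45 and 6.27 CPM against 0 (at least 81.3-fold higher).

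**Figure D2:**
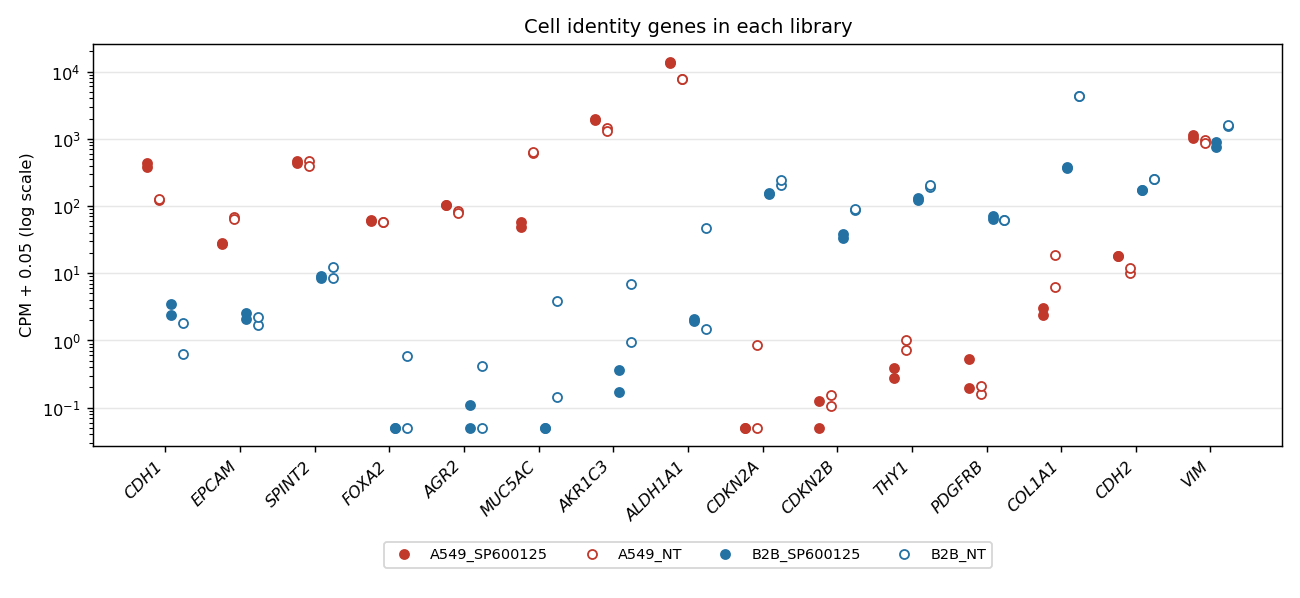
Level of 15 identity genes in each library, as CPM plus 0.05 on a log axis, with A549 in red, B2B in blue, SP600125 filled and untreated open (2 points per group). The A549 and B2B points lie well apart for every gene shown except VIM, where they lie close, and the open blue points of MUC5AC, AKR1C3 and ALDH1A1 lie further apart than the filled ones.

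Mesenchymal genes stood lower in A549. Of 20 tested, 16 were lower and 2 higher under SP600125 (untreated 18 and 2), and 18 were called the same way in both conditions. Members near 0 in A549, such as THY1, PDGFRB and CNN1, could pass the low-count filter only through B2B. That fixed their direction, so they are no evidence in these counts. The median over the list was -3.92 under the drug and -5.49 without it, beside 0.02 and 0.05 over all genes. In 10 of the 20 the difference moved upwards by the test and in 0 downwards (12 and 1 without the untreated replicate 2 libraries), against 12.1% and 13.1% of all genes. THY1, a surface glycoprotein of fibroblasts, stood at 0.224 and 0.345 CPM in A549 and 132 and 123 CPM in B2B (-8.77 ± 0.24, adjusted p = 6.03e-12). PDGFRB, the receptor of platelet-derived growth factor B, stood at 0.149 and 0.482 CPM against 64.1 and 71.7 CPM (-7.69 ± 0.25). CNN1, the smooth muscle calponin, was at 0 in both A549 libraries and at 3.01 and 5.96 CPM in B2B (at least 40.7-fold lower), after 34.1 and 38.2 CPM in B2B_NT. COL1A1, the major chain of type I collagen, remained lower in A549 (-7.15 ± 0.39) while its B2B level was 372 and 382 CPM under the drug and 4296 and 4391 CPM without it. CDH2, the N-cadherin, stood at 18.3 and 17.7 CPM against 175 and 172 CPM, a difference of -3.27 ± 0.15 that was -4.53 ± 0.15 untreated (change 1.25 ± 0.20, adjusted p = 0.000541).

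VIM, the intermediate filament vimentin that is often read as a mesenchymal marker, was not called between the treated lines. It stood at 1132 and 1037 CPM in A549_SP600125 and 745 and 908 CPM in B2B_SP600125, so the groups did not overlap, but the difference of 0.39 ± 0.12 (adjusted p = 0.0108) fell short of the fold minimum. Without B2B_SP600125 replicate 2 it was called (0.54, adjusted p = 0.00511). Without drug VIM was lower in A549 (-0.79 ± 0.12), and the change of 1.18 ± 0.17 passed (adjusted p = 0.000298). Of 9 transcription factors of epithelial-mesenchymal transition, 6 were lower in A549 and 2 higher. SNAI2 stood at 0.298 and 0.0689 CPM against 4.94 and 5.29 CPM (-4.78 ± 0.48), where B2B_NT had 19.8 and 20.4 CPM. ZEB2 stood at 7.23 and 6.48 CPM against 82.0 and 94.7 CPM (-3.69 ± 0.21), with a change of 0.94 ± 0.30 (adjusted p = 0.0322) whose call was lost under 8 of 16 alternatives. PRRX1 had 14 counts in B2B_SP600125 and 0 in A549, at least 3.65-fold lower.

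Matrix genes held a weaker version of the same split. Of 33 matrix and basement membrane genes 19 were lower in A549 and 10 higher under SP600125, against 21 and 6 untreated, and in 21 the difference moved upwards by the test (15 without the untreated replicate 2 libraries) while in 2 it moved downwards. TNC, the matrix glycoprotein tenascin C, stood at 1 count over both A549_SP600125 libraries and 18.5 and 29.9 CPM in B2B_SP600125, where B2B_NT had 753 and 776 CPM. LOXL1, a collagen and elastin crosslinking enzyme, stood at 0.0745 and 0.0689 CPM against 18.0 and 26.9 CPM. COL8A1 stood at 0.224 and 0.0689 CPM against 34.4 and 36.4 CPM (-7.88 ± 0.40, adjusted p = 7.55e-10).

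Integrins, the receptors that bind cells to this matrix, divided near the shares of all genes (30.0% higher and 28.2% lower). Of 17, 6 were higher and 6 lower, and 12 were called the same way untreated. ITGB6, an epithelial chain, stood at 6.33 and 6.203 CPM in A549 and 0 in B2B (at least 74.5-fold higher). ITGA2, a collagen receptor chain, stood at 44.6 and 43.8 CPM against 2.91 and 4.32 CPM (3.62 ± 0.27), a difference that grew from 2.30 ± 0.24 (change 1.32 ± 0.36, adjusted p = 0.016). ITGB3, the beta chain of the vitronectin receptor, marked B2B, at 90.9 and 109 CPM against 2.01 and 1.59 CPM in A549 (-5.80 ± 0.19, adjusted p = 1.24e-11).

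Several genes of other epithelial lineages marked A549. Of 18 airway secretory genes 7 were high enough to test and all 7 were higher in A549 in both conditions. Members near 0 in B2B could pass the low-count filter only through A549, which fixed their direction. The counts of higher members here and among the liver and gut genes are therefore no evidence about these lists. The same limit holds for members of the other lists that were near 0 in 1 line. MUC5AC, a gel-forming mucin, stood at 57.9 and 48.3 CPM in A549_SP600125 and at 0 in B2B_SP600125, after 609.6 and 632 CPM in A549_NT. MUC5B, its partner mucin, stood at 27.9 and 28.8 CPM against 0 and 0.183 CPM, after 793 and 752 CPM in A549_NT. AGR2, an enzyme that folds mucins, stood at 104 and 104 CPM in A549_SP600125 and 85.1 and 79.1 CPM in A549_NT, with 1 count in B2B_SP600125. Of 33 liver and gut genes 24 were tested, 20 higher in A549 and 0 lower under the drug, and 18 were called the same way untreated. The clotting factor gene F5 stood at 45.6 and 40.3 CPM against 0 (at least 509.6-fold higher). CDH17, a cadherin of the intestine, stood at 32.3 and 33.7 CPM against 0 (at least 393-fold higher), and HGD, an enzyme of tyrosine breakdown, at 98.4 and 109 CPM against 0.104 and 0 CPM.

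Among 22 tested transcription factors of lung and endoderm, 12 were higher in A549 and 5 lower, 15 of them called the same way untreated. GATA4, an endoderm factor, stood at 4.84 and 4.76 CPM against 0 (at least 57.0-fold higher). Of 8 tested alveolar type II genes 3 were higher and 4 lower. The surfactant protein gene SFTPD stood at 3.43 and 4.27 CPM in A549_SP600125, 0.500 and 0.372 CPM in A549_NT and 0 and 0.304 CPM in B2B_SP600125 (4.71 ± 0.62). CD74, the class II invariant chain, stood at 0 and 0.0689 CPM in A549 and 1.82 and 1.89 CPM in B2B, a difference of -5.46 ± 0.66 that had been -1.79 ± 0.27 (change -3.67 ± 0.86, adjusted p = 0.00675). Of 11 basal genes 5 were higher and 4 lower. KRT17, a stress and basal keratin, marked B2B at 38.9 and 59.2 CPM against 0.149 and 0.138 CPM (-8.35 ± 0.50), after 388 and 418 CPM in B2B_NT.

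HOX genes, whose expression records the position of a cell's ancestors along the body axis, kept their line pattern. Of 39, 31 were tested, 18 higher in A549 and 10 lower, and 25 were called the same way in both conditions with 0 turned over. HOXA4 stood at 2.76 and 3.10 CPM in A549 and 0 in B2B (at least 34.9-fold higher), HOXD8 at 13.3 and 10.1 CPM against 0.0520 and 0 CPM, and HOXC12 at 0 in A549 and 3.74 and 2.56 CPM in B2B (at least 29.8-fold lower).

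The NRF2 program stood in every member. NRF2 switches on genes of glutathione synthesis, quinone reduction and the pentose phosphate route. All 33 targets were called in the same direction with and without drug, 32 higher in A549 and 1, the carbonyl reductase CBR3, lower (-0.82). The median over the list was 3.45 under SP600125 and 3.59 untreated. In 10 targets the difference moved upwards by the test and in 5 downwards, and in 5 and 6 without the untreated replicate 2 libraries. AKR1C3, a reductase of steroids and prostaglandins (chr10:5035354-5107686, hg38), stood at 1906 and 1979 CPM in A549_SP600125 and 0.312 and 0.122 CPM in B2B_SP600125 (13.04 ± 0.67, adjusted p = 7.23e-10). AKR1B10, a retinal reductase, stood at 5054 and 5413 CPM against 0.832 and 0.791 CPM (12.64 ± 1.28), and AKR1C2 at 3072 and 3129.9 CPM against 0.624 and 0.852 CPM. These reductases have near-identical copies, AKR1B15 among them (117 and 119.6 CPM in A549 and 0 in B2B). Reads with several alignments were not assigned, so the levels of such copies may be too low. AKR1C3 had 0.910 and 6.96 CPM in the B2B_NT libraries, its untreated difference was 8.41 ± 0.49, and it was 10.65 without the untreated replicate 2 libraries. KEAP1 itself did not separate the treated lines, at 61.4 and 69.2 CPM against 67.7 and 70.0 CPM (-0.077 ± 0.13, adjusted p = 0.63).

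Of 15 aldehyde dehydrogenases, which clear reactive aldehydes, 7 were higher in A549 and 3 lower (30.0% and 28.2% of all genes). ALDH1A1, the retinal dehydrogenase used as a stem cell marker in lung cancer, stood at 13761 and 13500.1 CPM in A549_SP600125 and 1.87 and 2.01 CPM in B2B_SP600125, a difference of 12.78 ± 1.15. Its untreated difference was 8.32 ± 0.93, with 1.44 and 46.7 CPM in B2B_NT. The change of 4.45 ± 1.19 was called (adjusted p = 0.014) and was 0.39 (adjusted p = 0.549) without the untreated replicate 2 libraries. ALDH3A1 stood at 1332 and 1348 CPM against 0.260 and 0.243 CPM, with a change of 3.96 ± 1.20 that was 0.061 without them. ALDH2, the mitochondrial enzyme of alcohol breakdown, stood at 523 and 545 CPM against 37.9 and 36.1 CPM (3.85 ± 0.13). The untreated levels were 187 and 166 CPM in A549_NT and 6.03 and 5.21 CPM in B2B_NT, and the difference was smaller than without drug (change -1.13 ± 0.18, adjusted p = 0.000542).

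A stretch of chromosome 9 held several genes that marked B2B. CDKN2A (chr9:21967752-21995301, hg38), which encodes the p16 and ARF tumour suppressors, stood at 0 in both A549_SP600125 libraries and at 151 and 157 CPM in B2B_SP600125, at least 1429-fold lower. Untreated, CDKN2A stood at 0 and 0.796 CPM in A549_NT and 207 and 241 CPM in B2B_NT. Its neighbour CDKN2B (chr9:22002903-22009305), which encodes the related inhibitor p15, had 1 count in A549_SP600125 and 33.2 and 38.7 CPM in B2B_SP600125, where B2B_NT had 88.5 and 89.0 CPM. On the other side MTAP (chr9:21802636-21937651), an enzyme of methionine salvage, stood at 6.18 and 6.13 CPM in A549 and 56.9 and 63.5 CPM in B2B (-3.29 ± 0.16). A549 is also known to lack MTAP, yet reads were counted for it in A549, without drug too (9.34 and 11.2 CPM), and what they come from was not tested. ELAVL2, a neuronal RNA-binding protein gene farther along, stood at 0.298 and 0.414 CPM against 17.2 and 17.3 CPM (-5.57 ± 0.34). The other 4 genes of the stretch were FOCAD (1.29), KLHL9 (0.68) and IFNE (0.88), all called higher in A549 under SP600125, and DMRTA1 (-0.64, not called). Of the 8 genes, 3 were higher and 4 lower under the drug, against 0 and 6 untreated. Only 4 were called the same way in both conditions, and 1 turned over. In 3 the difference moved upwards by the test and in 0 downwards (12.1% and 13.1% of all genes).

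AP-1 genes kept a line difference for 4 of 7 subunits, and 5 of the 7 differences moved downwards by the test. FOS stood at 141 and 138 CPM in A549_SP600125 and 69.4 and 46.4 CPM in B2B_SP600125. The groups did not overlap, and the difference of 1.26 ± 0.20 (adjusted p = 8.29e-05) was 5.24 ± 0.24 untreated, a change of -3.98 ± 0.30 (adjusted p = 1.7e-06). The untreated levels lay further apart, since A549_NT had 323 and 311 CPM and B2B_NT 7.85 and 8.92 CPM. FOSB stood at 21.2 and 18.6 CPM against 6.96 and 6.82 CPM (1.53 ± 0.16), after 255 and 279.9 CPM in A549_NT and 3.35 and 4.11 CPM in B2B_NT (change -4.63 ± 0.23, adjusted p = 6.22e-08). JUNB in A549 stood at 114 and 107 CPM under the drug and 129 and 106 CPM without it, while B2B stood at 61.1 and 46.6 CPM and 14.8 and 16.9 CPM, so its difference was 1.04 ± 0.15 (change -1.85 ± 0.21, adjusted p = 4.42e-05).

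The other subunits had smaller changes. JUN, the substrate of JNK, was lower in A549 in both conditions. It stood at 46.9 and 36.5 CPM against 90.3 and 107 CPM (-1.24 ± 0.13, adjusted p = 8.61e-07), and its change of -0.25 ± 0.17 lay within 2-fold (-0.62 to 0.12). FOSL2 was lower in A549 under SP600125 alone, at 83.9 and 80.6 CPM against 131 and 126 CPM (-0.64 ± 0.10, untreated 0.10 ± 0.10, change -0.74 ± 0.14, adjusted p = 0.00198). FOSL1 stood at 10.7 and 11.03 CPM and 8.78 and 11.6 CPM (0.10 ± 0.31, adjusted p = 0.794), against 178 and 174 CPM in A549_NT and 93.4 and 98.9 CPM in B2B_NT. JUND stood at 81.7 and 86.4 CPM and 75.7 and 86.4 CPM, with overlapping groups (0.053 ± 0.12). Untreated, JUND was higher in A549 (0.59), and its change of -0.54 was called (adjusted p = 0.0329). That call was lost under 6 of 16 alternatives. The signs of the FOSL1 and JUND differences under SP600125 turned with library size as the only scaling.

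**Figure D3:**
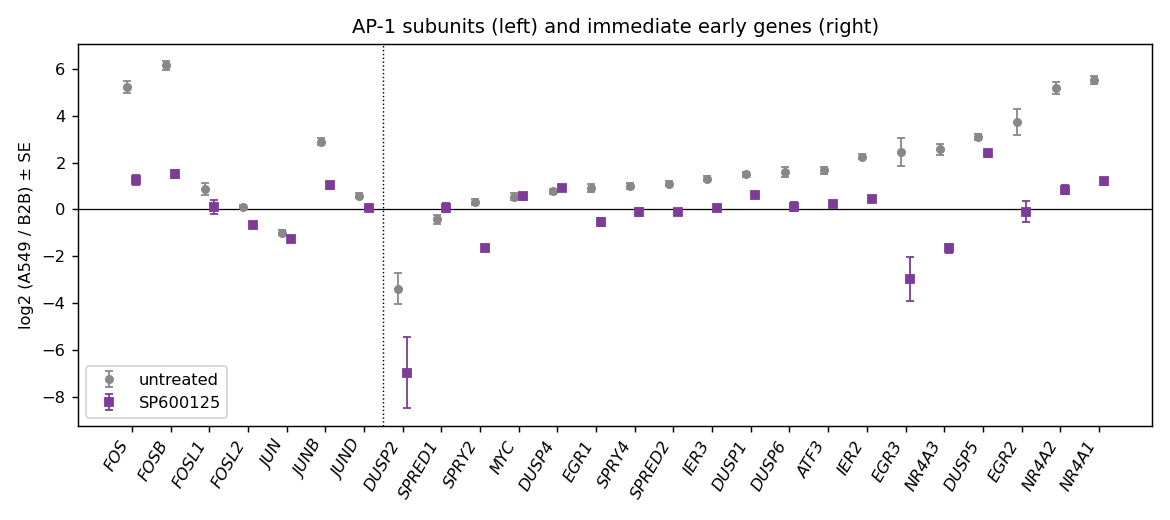
Log2(A549/B2B) ± SE of the 7 AP-1 subunits and of 19 immediate early genes, untreated (grey circles) and under SP600125 (purple squares), 2 libraries per group. FOS and FOSB drop from above 5 to below 2, most immediate early genes drop towards 0, and DUSP2, without counts in A549_SP600125, has a fitted value that is no bound.

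Immediate early genes, which growth signals switch on without new protein synthesis, lost most of their line difference. Untreated, 16 of 19 were higher in A549 and 1 lower. Under SP600125, 6 were higher and 5 lower, 7 were called the same way as untreated and 3 in the opposite direction. In 15 of 19 the difference moved downwards and in 0 upwards, also without the untreated replicate 2 libraries. The median went from 1.52 to 0.07. DUSP5, a nuclear ERK phosphatase, stood higher in A549 in both conditions, at 214 and 213 CPM against 36.6 and 44.9 CPM (2.39 ± 0.13, change -0.70 ± 0.18, adjusted p = 0.011). EGR3, a zinc finger factor, had 3 counts in A549_SP600125 and 32 in B2B_SP600125, where it had been higher in A549 without drug (2.28 and 1.17 CPM in A549_NT, 0.431 and 0.204 CPM in B2B_NT). Its difference of -2.99 ± 0.94 lost its call without A549_SP600125 replicate 1 (-2.08, adjusted p = 0.0919) and without B2B_SP600125 replicate 1 (-2.81, adjusted p = 0.056). NR4A3, an orphan nuclear receptor, turned over as well, at 6.78 and 6.69 CPM in A549 and 23.4 and 19.2 CPM in B2B (-1.66 ± 0.19) after 9.06 and 9.72 CPM in A549_NT and 1.44 and 1.71 CPM in B2B_NT (change -4.23 ± 0.30, adjusted p = 9.92e-07).

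Of 20 members of the JNK cascade itself, 4 were higher in A549 under the drug, 4 were lower and 12 were not called. Of all genes 30.0% were higher and 28.2% lower. DUSP8, a phosphatase that switches JNK off, had the largest difference, at 1.42 and 0.758 CPM in A549_SP600125 and 19.2 and 17.1 CPM in B2B_SP600125 (-4.07 ± 0.24). Untreated its difference was not called (23.0 and 19.1 CPM and 27.1 and 28.8 CPM), and the change of -3.66 ± 0.30 passed (adjusted p = 2.86e-06). MAP3K1, a kinase at the top of the cascade, was lower in A549 in both conditions (-1.61 ± 0.20, 46.0 and 47.8 CPM against 141 and 146 CPM).

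The promoters of a pair of genes with line differences carry the DNA motif that AP-1 binds. The 250 bases before the RefSeq start of each gene (GRCh38.p14, 5′ to 3′ on the gene's strand) were searched on both strands for TGANTCA, which 6.6% of 27305 such windows hold. MMP7 and F3 are shown because they were named for their line difference, both windows hold the motif and the lines differ in opposite directions. Capitals mark the matches. A match is no measured binding site.
MMP7, chr11:102530748-102530997, minus strand: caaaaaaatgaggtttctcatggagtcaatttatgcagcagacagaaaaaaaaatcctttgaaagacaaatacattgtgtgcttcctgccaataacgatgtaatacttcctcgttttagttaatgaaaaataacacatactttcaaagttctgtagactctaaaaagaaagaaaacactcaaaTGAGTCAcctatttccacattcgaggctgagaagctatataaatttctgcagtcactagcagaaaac
F3, chr1:94541760-94542009, minus strand: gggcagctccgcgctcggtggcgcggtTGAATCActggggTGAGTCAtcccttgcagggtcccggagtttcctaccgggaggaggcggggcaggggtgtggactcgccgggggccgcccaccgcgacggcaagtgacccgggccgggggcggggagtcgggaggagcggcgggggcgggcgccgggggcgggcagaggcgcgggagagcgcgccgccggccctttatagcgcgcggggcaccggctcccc

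MMP7, which encodes the protease matrilysin, holds 1 match that starts 67 bases before the gene start. It stood at 2.91 and 3.93 CPM in A549_SP600125 and 0 in B2B_SP600125 (at least 40.9-fold higher), after 18.6 and 20.5 CPM in A549_NT. F3, which encodes tissue factor, the starter of clotting and a target of the growth regulator YAP, holds 2 matches, 223 and 210 bases before the start. It stood at 46.7 and 52.7 CPM in B2B_SP600125 and 1.94 and 1.86 CPM in A549_SP600125, after 262 and 255 CPM in B2B_NT and 8.67 and 10.1 CPM in A549_NT. The line difference of -4.70 ± 0.17 was -4.78 ± 0.14 untreated, with an interval of the change of -0.45 to 0.60 that lay within 2-fold.

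Of 22 YAP targets 14 were lower in A549 and 5 higher under SP600125, 17 the same way as untreated, and 2 turned over. In 7 the difference moved upwards by the test and in 3 downwards (12.1% and 13.1% of all genes). CYR61, a secreted matricellular protein also named CCN1, stood at 118 and 111 CPM against 956 and 1155 CPM (-3.20 ± 0.17), with a change of -0.63 ± 0.22 (adjusted p = 0.0452) whose call was lost under 10 of 16 alternatives. FOXF2, a forkhead factor, went the other way at 14.5 and 15.4 CPM against 1 count in B2B. Of 15 proteases and plasminogen genes 5 were higher in A549 and 7 lower (30.0% and 28.2% of all genes). PLAT, the tissue plasminogen activator, marked B2B at 18.5 and 21.6 CPM against 0.894 and 1.24 CPM (-4.21 ± 0.24, adjusted p = 1.85e-09).

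Proliferation genes differed between the lines mainly under the drug. Of 45 DNA replication genes, 36 were lower in A549 under SP600125 and 1 higher, where 8 were lower and 8 higher without drug, and in 39 the difference moved downwards by the test (34 without the untreated replicate 2 libraries). The median was -1.12 under SP600125 and -0.01 untreated. Of 40 mitosis genes 36 were lower and 0 higher, against 14 and 0 untreated, and in 29 the difference moved downwards (21 without those libraries). UHRF1, a keeper of DNA methylation in S phase, stood at 10.8 and 8.06 CPM in A549_SP600125 and 56.9 and 61.0 CPM in B2B_SP600125, after 107 and 111 CPM in A549_NT and 190.3 and 185 CPM in B2B_NT. The difference went from -0.79 ± 0.15 to -2.65 ± 0.18 (change -1.86 ± 0.24, adjusted p = 0.000111).

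RPA2, a subunit of the single-strand binding protein, stood at 37.3 and 35.2 CPM in A549_SP600125 and 136 and 151 CPM in B2B_SP600125, after 70.7 and 71.4 CPM in B2B_NT (change -1.39 ± 0.16, adjusted p = 5.21e-05). The S phase cyclin gene CCNE2 stood at 8.72 and 7.86 CPM against 52.8 and 72.3 CPM (-2.92 ± 0.21). Of the mitosis genes, NDC80, a kinetochore subunit, stood at 21.9 and 17.1 CPM against 190.4 and 157 CPM (-3.16 ± 0.14, change -0.95 ± 0.19, adjusted p = 0.00236). The kinesin KIF20A stood at 50.4 and 46.5 CPM against 256 and 213 CPM (-2.28 ± 0.16) and the kinesin KIF2C at 55.1 and 53.5 CPM against 292 and 225 CPM (-2.25 ± 0.15, change -1.06 ± 0.20, adjusted p = 0.00194). Untreated, CCNE2 (-1.84 ± 0.20), NDC80 (-2.21 ± 0.13), KIF20A (-1.63 ± 0.15) and KIF2C (-1.19 ± 0.14) were lower in A549 as well. The change of KIF20A (-0.65 ± 0.22, adjusted p = 0.0402) lost its call under 9 of 16 alternatives.

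**Figure D4:**
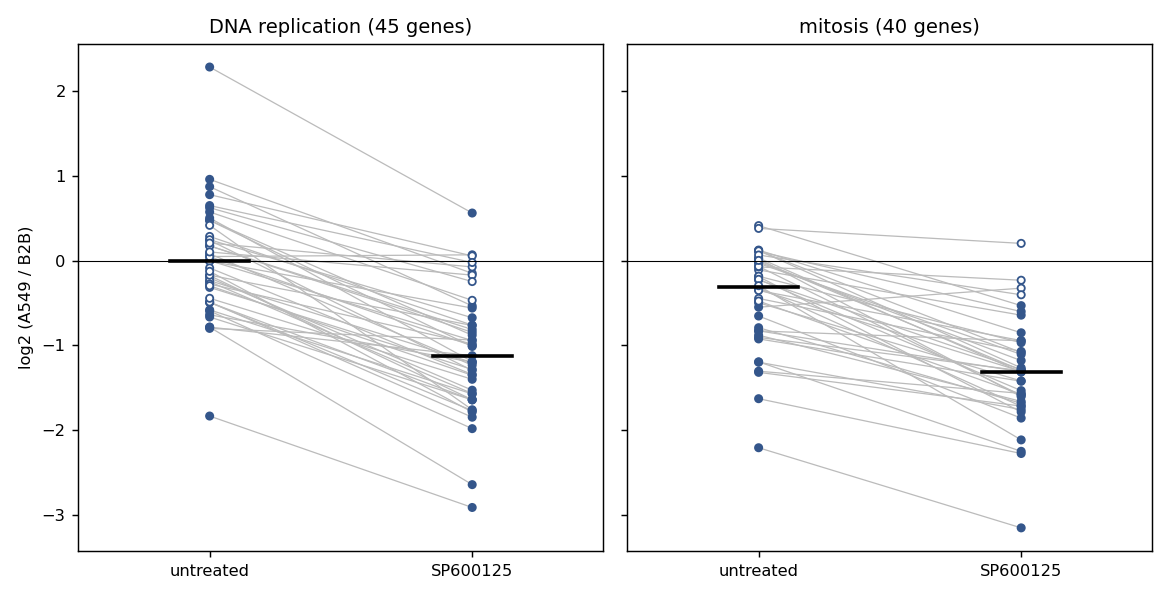
Log2(A549/B2B) of 45 DNA replication genes and 40 mitosis genes, untreated and under SP600125, with a grey line per gene, filled points for called genes and black bars for the medians. The median of the replication genes moves from -0.01 to -1.12 and that of the mitosis genes from -0.31 to -1.31.

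The p53 targets moved the other way. Of 30, 19 were higher in A549 and 2 lower under SP600125, against 16 and 7 untreated, and in 15 the difference moved upwards (7 without the untreated replicate 2 libraries). TP53I3, an oxidoreductase gene, stood at 295 and 293 CPM against 41.3 and 41.5 CPM (2.83 ± 0.13), with a change of 0.55 ± 0.17 (adjusted p = 0.0322) whose call was lost under 11 of 16 alternatives. CYFIP2, an actin regulator, stood at 262 and 249 CPM against 50.9 and 41.8 CPM (2.46 ± 0.13). The secreted stress cytokine GDF15 ran against the list. Its difference shrank to 2.56 ± 0.13 from 4.54 ± 0.15 (change -1.97 ± 0.19, adjusted p = 1.21e-05), with 91.3 and 100.7 CPM in A549_SP600125 and 15.9 and 16.6 CPM in B2B_SP600125, after 3.07 and 3.99 CPM in B2B_NT.

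Of 28 genes of the integrated stress response, the program run by ATF4 when translation stalls, 14 were higher in A549 and 5 lower, and 12 stood from the untreated state. SLC7A11, the cystine transporter, stood at 998 and 979.8 CPM against 128 and 230.1 CPM (2.47 ± 0.28), and the mTOR inhibitor gene DDIT4 at 423 and 423 CPM against 95.2 and 121 CPM (1.97 ± 0.13, change -0.84 ± 0.18, adjusted p = 0.00416). NUPR1, a stress-induced nuclear protein, was called under the drug and not without it (0.83 ± 0.40), at 70.2 and 80.1 CPM against 6.96 and 13.6 CPM (2.88 ± 0.25). Its change of 2.05 ± 0.48 lost its call without the untreated replicate 2 libraries (1.33, adjusted p = 0.199).

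Interferon-stimulated genes mostly marked B2B, with 21 of 34 lower in A549 and 8 higher under SP600125 and 23 called the same way as untreated. IFITM1, which blocks virus entry, had 3 counts in A549_SP600125 and 24.9 and 22.8 CPM in B2B_SP600125 (3.21 and 4.72 CPM in B2B_NT). OAS1, a sensor of double-stranded RNA, went the other way, at 85.0 and 89.6 CPM in A549 and 0.364 and 0.426 CPM in B2B (7.77 ± 0.22, adjusted p = 8.15e-12). Of 23 inflammation and NF-kB genes 13 were higher in A549 and 4 lower, and 17 stood. PTGS2, the inducible prostaglandin synthase, stood at 46.3 and 45.9 CPM against 0.156 and 0.122 CPM (8.30 ± 0.66), CXCL5, a chemokine for neutrophils, at 80.5 and 77.1 CPM against 0.260 and 0.243 CPM (8.25 ± 0.39), and ICAM1, the leukocyte adhesion receptor, marked B2B at 47.5 and 52.7 CPM against 0.671 and 0.896 CPM (-5.98 ± 0.26).

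The study asked about oncogenes, and 10 of the larger number it names were listed here. It names them from results that include these samples, so their direction is no independent evidence. Under SP600125 8 of the 10 were higher in A549 and 0 lower (5 and 0 untreated), and 5 were higher and 1 lower with library size as the only scaling. CCND1, cyclin D1, stood at 687 and 642 CPM in A549_SP600125 and 38.2 and 44.5 CPM in B2B_SP600125 (4.01 ± 0.12, adjusted p = 1e-11), and its change of -0.10 ± 0.15 lay within 2-fold (-0.43 to 0.22). The tyrosine kinase SRC stood at 401 and 426 CPM against 74.7 and 66.3 CPM (2.55 ± 0.12), smaller than untreated (3.18 ± 0.12, change -0.63 ± 0.16, adjusted p = 0.0099). HSP90AB1, a chaperone of many kinases, was called under the drug (1.08 ± 0.12) and not without it (0.48 ± 0.12), where its B2B level was 828 and 979 CPM against 1607 and 1631 CPM in B2B_NT.

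**Figure D5:**
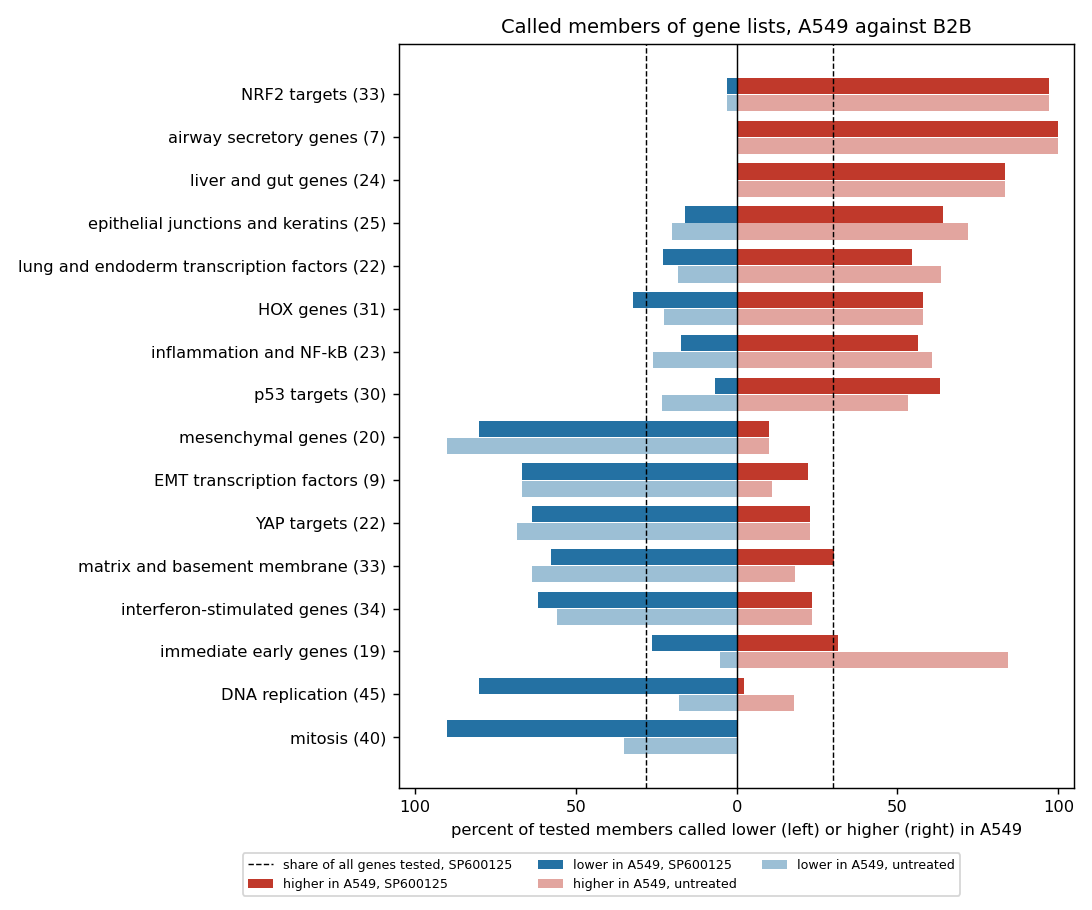
Percent of tested members called lower (left) or higher (right) in A549 for 16 gene lists, under SP600125 (dark) and untreated (pale), with the number tested in brackets and dashed lines at the share of all genes called under SP600125 (28.2% lower, 30.0% higher). The identity lists at the top and in the middle have bars of like length in both conditions, while the immediate early, DNA replication and mitosis bars differ.

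The 177 genes called in opposite directions are differences that did not stand. The 8 with the largest change at 10 CPM or more included 6 that were lower in untreated A549 and higher under the drug. TFPI, the inhibitor of the tissue factor pathway, stood at 183 and 186 CPM in A549_SP600125 and 45.4 and 57.4 CPM in B2B_SP600125 (1.84 ± 0.28), after 57.6 and 61.9 CPM in A549_NT and 191 and 186 CPM in B2B_NT (-1.66 ± 0.28). The change was 3.50 ± 0.39 (adjusted p = 4.42e-05). The guidance molecule SEMA3E turned over likewise, at 12.6 and 11.6 against 2.18 and 2.25 CPM under the drug and 6.34 and 7.33 against 13.7 and 14.4 CPM without it. PRSS35, a serine protease relative, went from -3.03 ± 0.36 to 3.91 ± 0.37, GALNT5, an enzyme of mucin glycosylation, from -2.34 ± 0.28 to 2.63 ± 0.65, SPOCD1 from -5.20 ± 0.24 to 1.28 ± 0.36 and MAP3K7CL from -3.23 ± 0.21 to 0.59 ± 0.22. The latter pair is uncertain on the drug side. SPOCD1 lost its call there without A549_SP600125 replicate 2 (0.81, adjusted p = 0.129) and without B2B_SP600125 replicate 1 (0.94, adjusted p = 0.0684), and MAP3K7CL lost it under 7 of 11 alternatives, among them without B2B_SP600125 replicate 1 (0.30, adjusted p = 0.272). GNG4, a G protein gamma subunit, went the other way and was B2B-high under the drug, at 26.8 and 34.7 CPM against 4.02 and 4.20 CPM in A549 (-2.90 ± 0.20, untreated 2.41 ± 0.18).

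Other untreated differences, of 2380 genes, were not called under the drug. Of these, 908 genes higher and 835 lower in untreated A549 kept their sign. The change was called for 931 of the 2380, and for 616 its 95% interval lay within 2-fold. The 8 named here were picked for the largest called changes at 10 CPM or more. CEBPA, a differentiation factor of lung and liver, separated the untreated lines (18.0 and 14.2 CPM in A549_NT, 0.192 and 0.570 CPM in B2B_NT, 5.33 ± 0.34) and stood at 11.03 and 10.7 CPM and 7.22 and 10.3 CPM under the drug (0.31 ± 0.24, not called). SYT11, a synaptotagmin, stood at 15.3 and 14.6 CPM in A549_SP600125 and 15.3 and 10.7 CPM in B2B_SP600125 after 0.945 and 1.17 CPM in A549_NT. ACTG2, the enteric smooth muscle actin, had a B2B level of 16.04 and 16.2 CPM untreated and 0.364 and 0.243 CPM under the drug, beside 0.224 and 0.0689 CPM in A549. The angiotensin receptor AGTR1 (12.2 and 13.2 CPM in B2B_NT, 0.416 and 0.730 CPM in B2B_SP600125), the integrin chain ITGA4 (12.2 and 10.7 CPM, then 0.676 and 1.34 CPM), the cadherin CDH6 (13.0 and 14.4 CPM, then 0.884 and 1.40 CPM) and the tetraspanin TSPAN18 (30.0 and 31.3 CPM, then 2.34 and 3.59 CPM) had lower B2B levels under the drug as well. The potassium channel KCNH3 had an A549 level of 16.1 and 13.2 CPM untreated and 2.31 and 2.69 CPM under the drug. In all 8 the change was called (adjusted p of 4.71e-06 for CEBPA to 0.00201 for CDH6).

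New differences were called for 2595 genes, 1164 higher in A549 and 1431 lower, and for 1212 of these the change was called as well. CD44, a hyaluronan receptor, was level in the untreated lines (636 and 665 CPM in A549_NT, 638 and 628 CPM in B2B_NT) and stood at 486 and 490.1 CPM in A549_SP600125 and 62.5 and 90.0 CPM in B2B_SP600125 (2.68 ± 0.15, change 2.64 ± 0.20, adjusted p = 1.81e-06). SEMA3C, a secreted semaphorin, stood at 565 and 532 CPM in A549 and 57.3 and 66.6 CPM in B2B (3.14 ± 0.17) after 225 and 305 CPM in A549_NT and 207 and 192 CPM in B2B_NT. ARHGAP18 (3.19 ± 0.23, 117 and 127 against 11.02 and 15.9 CPM) was higher in A549. The apolipoprotein APOL1 (-2.85 ± 0.23), the rhomboid RHBDL3 (-2.45 ± 0.19) and the synaptotagmin SYT12 (-2.23 ± 0.25) were lower in A549. The collagenase MMP1, near 0 untreated (0.0556 and 0.0531 CPM in A549_NT, 0.383 and 0.122 CPM in B2B_NT), stood at 12.4 and 11.03 CPM and 7.38 and 6.94 CPM under the drug, and its call (0.71 ± 0.22) was lost under 5 of 11 alternatives, among them without A549_SP600125 replicate 1 (0.62, adjusted p = 0.0911) and without B2B_SP600125 replicate 2 (0.66, adjusted p = 0.0555).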

How the data were processed

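Poly(A)-selected RNA of A549 and B2B cells was sequenced in 12 libraries, 2 per group. The authors aligned reads to hg38 with STAR (version 2.7.10a) and counted them with HTSeq (version 1.99.2), and the deposited values are raw counts per gene symbol. Reads with several alignments or in more than 1 gene were not assigned. No source used here states the annotation version or the strand setting, so overlapping and antisense genes may share reads. Reads in no gene, ambiguous reads and reads aligned to several places (14.6 to 25.9%, 1.19 to 2.03% and 14.9 to 24.7% of tallied reads) stayed out of library sizes and tests.

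Counts were filtered with filterByExpr, scaled by TMM and fitted with edgeR (version 4.0.16, R version 4.3.3) in 6 groups with no covariate and 6 residual degrees of freedom, and the steps were tested on simulated data. Each SE is the log2 difference over the root of its F value. Folds against 0 counts used 3 counts over the group, and ratios with 1 to 3 counts have exact 95% intervals. Both cover counting error only. Alternatives were DESeq2 (version 1.42.0), its size factors, library size alone, no filter, the compared groups alone, the replicate number as a term, a log2 minimum of 1 and each library left out.

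Gene positions are from GENCODE v44 and promoter windows from RefSeq. The members, gene lists and rule were chosen with earlier results of these data known. Genes named were the 10 largest called differences per direction at 10 CPM or more, up to 3 called members per list, 16 markers and AP-1 subunits given by name, and the 8 largest changes among genes turned over, called untreated alone or called under SP600125 alone. Unnamed loci, small RNA, antisense and sex-linked marker genes were left out of the first and last of these. Not every gene of the rule is described, and some are not reported here.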

Additional observations from a re-analysis of the deposited data

Results flagged for a closer look

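The genes below are those of the report whose line difference changed by the test between the untreated and the SP600125 libraries. Values are the log2 line difference under SP600125 minus the untreated one, from edgeR's quasi-likelihood fit. The same 4 groups chose them, no group held enough libraries for a check of single samples, and 4121 of 16373 genes (25.2%) changed in this way.

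The difference moved downwards for the AP-1 and signalling genes FOS (-3.98), FOSB (-4.63), JUNB (-1.85), FOSL2 (-0.74), JUND (-0.54), EGR3 (-5.43), NR4A3 (-4.23), DUSP5 (-0.70) and DUSP8 (-3.66), and for the proliferation genes CCNE2 (-1.08), UHRF1 (-1.86), RPA2 (-1.39), NDC80 (-0.95), KIF20A (-0.65) and KIF2C (-1.06). It also did for EPCAM (-1.53), ALDH2 (-1.13), CYR61 (-0.63), GDF15 (-1.97), DDIT4 (-0.84), SRC (-0.63), KEAP1 (-0.54) and CD74 (-3.67). Among genes called in the opposite direction or in 1 condition it did for GNG4 (-5.31), CEBPA (-5.02), KCNH3 (-2.94), RHBDL3 (-2.85), APOL1 (-2.85) and SYT12 (-2.80).

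It moved upwards for the adhesion and mesenchymal genes CDH2 (1.25), VIM (1.18), ZEB2 (0.94) and ITGA2 (1.32), and for TP53I3 (0.55), HSP90AB1 (0.61) and NUPR1 (2.05). Genes that turned over were PRSS35 (6.94), SPOCD1 (6.48), GALNT5 (4.98), MAP3K7CL (3.82), TFPI (3.50) and SEMA3E (3.48). Those called in 1 condition were ACTG2 (7.84), AGTR1 (5.69), ITGA4 (4.53), CDH6 (3.79), SYT11 (3.70), TSPAN18 (3.04), ARHGAP18 (2.95), SEMA3C (2.73), CD44 (2.64) and MMP1 (2.75).

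The change was also called for genes near 0 in 1 line, namely RSPO3 (5.35), AKR1B15 (5.97), AKR1C3 (4.63), ALDH1A1 (4.45), ALDH3A1 (3.96), SIX2 (-5.25) and CHGA (5.57). Without the untreated replicate 2 libraries AKR1C3 stood at 2.39 (adjusted p = 0.0171), CHGA at 5.60 (adjusted p = 0.06), SIX2 at -3.15 (adjusted p = 0.373) and AKR1B15 at 0.083 (adjusted p = 1).

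Several of these changes depended on the setting. Of 16 alternatives, single libraries left out among them, the number under which the change was no longer called is given in brackets for KEAP1 (12), AKR1B15 (11), TP53I3 (11), CYR61 (10), HSP90AB1 (9), KIF20A (9), MMP1 (9), SIX2 (8), ZEB2 (8), ALDH3A1 (6), JUND (6), RSPO3 (5), ALDH1A1 (4), CCNE2 (4), DUSP5 (4) and SRC (4). It was 1 or 2 for ACTG2, CD74, CDH6, CHGA, DDIT4, FOSL2, ITGA2, NDC80 and NUPR1, and 0 for the other genes above. For RSPO3 the sign turned under 2 more.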

How the results depend on the processing

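The 4 counts were recomputed under each alternative. Calls under SP600125 (9531) ranged from 8897 to 9298 when 1 SP600125 library was left out and untreated calls (9316) from 8705 to 8969 when 1 untreated library was. With any 1 of these 8 libraries left out, changes of line differences (4121) ranged from 2741 to 3666 and differences that stood (6759) from 6344 to 6546. A lone library was then assumed to vary like those of the other groups. A log2 minimum of 1 gave 6308 calls under SP600125, 2141 changes and 4404 differences that stood. Without A549_NT replicate 2 and B2B_NT replicate 2, an alternative added after seeing the data, 8119 untreated calls, 2277 changes and 5975 differences that stood were counted. Under the remaining alternatives these counts stayed within 1.5 times. Library size as the only scaling moved the median difference under SP600125 from 0.02 to -0.16 and the split of its calls to 4155 higher and 5499 lower.

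The replicate numbers did not pair the lines within either condition. Deviations of same-numbered A549_SP600125 and B2B_SP600125 libraries correlated at -0.008 and those of A549_NT and B2B_NT at -0.150. Those of A549_NT and A549_SP600125 correlated at -0.220. Over all pairs of groups in the fit the values ran from -0.637 (A549_SR11302 and B2B_SR11302) to 0.543 (A549_NT and A549_SR11302). With the replicate block, 9458 genes were called under SP600125, 9246 untreated and 3816 changes, and 6707 differences stood. With the B2B_NT numbers crossed, 9270 were called untreated.

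Some named values changed sign, and of these only the change of RSPO3 had been called. With library size as the only scaling, this held under SP600125 for FOSL1 (-0.086) and JUND (-0.13) and untreated for FOSL2 (-0.021) and CD44 (-0.084). With the replicate block it held for the untreated value of APOL1 (0.0018), and with the crossed block too (0.00021). With libraries left out, values under SP600125 spanned 0 for FOSL1 (-0.091 to 0.30), JUND (-0.039 to 0.15), KEAP1 (-0.17 to 0.0066), ITGA4 (-0.67 to 0.46), CDH6 (-0.91 to 0.22), SYT11 (-0.038 to 0.49) and TSPAN18 (-0.60 to 0.091). Untreated values did for APOL1 (-0.10 to 0.087) and CD44 (-0.0035 to 0.069), and changes for RSPO3 (-2.10 to 7.79), CDH1 (-0.61 to 1.02), SPINT2 (-0.12 to 0.55), CCND1 (-0.18 to 0.010) and F3 (-0.032 to 0.21). The changes of RSPO3 and CDH1 were -2.05 and -0.61 without B2B_NT replicate 2. Without both untreated replicate 2 libraries, RSPO3 stood at -2.10, CDH1 at -0.58, SPINT2 at -0.12, and the untreated values of CD44 at -0.0035 and APOL1 at 0.073. The cause was not tested. With 2 libraries a group, all p-values rest on 6 residual degrees of freedom.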

Other observations

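Of 25 cholesterol synthesis genes 11 were higher in A549 and 6 lower under SP600125, against 4 and 10 untreated. Of the called differences 8 stood and 3 turned over, and in 11 of 25 the difference moved upwards (12.1% of all genes). ACAT2, a thiolase, remained lower in A549 at 30.4 and 31.9 CPM against 82.6 and 94.9 CPM (-1.51 ± 0.15). HMGCS1, an early enzyme, remained higher at 178 and 167 CPM against 45.7 and 52.8 CPM (1.81 ± 0.13).

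Markers of cell types that neither label names were also counted. Of 9 tested endothelial markers 4 were called higher in A549 under SP600125 and 0 lower, and 1 was called with library size as the only scaling. PECAM1 stood at 7.08 and 6.27 CPM in A549_SP600125 and 3.59 and 4.87 CPM in B2B_SP600125, after 0.0556 and 0.212 CPM in A549_NT and 0 in both B2B_NT libraries. Its call of 0.66 ± 0.27 (adjusted p = 0.0445) was lost under 7 of 11 alternatives, among them without A549_SP600125 replicate 1 (0.57, adjusted p = 0.192) and without B2B_SP600125 replicate 1 (0.45, adjusted p = 0.235). Of 7 ciliated and neuroendocrine markers 5 were higher in A549 and 0 lower. SYP, the vesicle protein synaptophysin, stood at 20.3 and 17.7 CPM against 1.40 and 1.16 CPM (3.88 ± 0.24), and CHGA, chromogranin A, at 2.91 and 2.76 CPM against 0 (at least 33.6-fold higher). Of 8 tested fibroblast markers, some of which the mesenchymal list also holds, 5 were lower in A549 and 1 higher. Of 5 tested immune markers 2 were lower. Of 10 targets of the aryl hydrocarbon receptor, a sensor of planar ring compounds, 4 were higher in A549 and 2 lower, against 3 and 6 untreated.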
